A study of Mus musculus with 54 samples.

Results

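The 9 genes Ccn1, Ccn2, Ankrd1, Thbs1, Vcl, Zyx, Srf, Amotl2 and Vgll4 are known targets or partners of SRF and YAP, the regulators through which cells answer stretch, adhesion and the state of their actin. They were chosen by name, with earlier results of these data known, and looked up by gene symbol among the probes of the array. Cyr61 was read as Ccn1 and Ctgf as Ccn2. Shares of all genes are printed beside counts of members as a description, since a choice made that way allows no test of excess. Of the 9, 8 had a probe, 10 probes of 29922 in all, since Ccn1 and Thbs1 had a second one. No probe carried the symbol Srf, which is not analysed here. All 8 measured genes passed the filter on dim genes, a mean signal over all arrays above 51.2 intensity units, as did 12792 of the 16637 genes with a probe.

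The cells were mouse 3T3-L1, a fibroblast-like preadipocyte line able to become fat cells. They were followed for 288 h in 3 arms of 18 arrays, with 1 array per arm and time: cells given 2 µM prieurianin (a plant limonoid), cells given 0.5% DMSO, and an untreated control undergoing normal differentiation. All arms are the same cell line. Neither the use of a separate culture for each time nor the moment at which the treated arms were induced to differentiate is stated in the labels, so the spread between arrays may be technical. Median intensity per array ran from 88 to 313 before normalisation and 93 to 176 probes per array were saturated, none of them a probe of the 8 genes. All 6 preadipocyte and all 6 fat cell markers were above the filter, as were 2 of 4 macrophage markers (Adgre1 and Ptprc below the filter), 1 of 3 endothelial (Cdh5 and Kdr below), 0 of 2 epithelial, 3 of 4 skeletal muscle (Ckm below) and 3 of 3 smooth muscle markers. The prieurianin array at 192 h stood apart from the other late prieurianin arrays. Its summed fat cell marker intensity was 264511 units against 48802 to 99852 on those 4, and the array most like it was that of untreated cells at 144 h (Pearson r across genes 0.971). Late results are therefore given with and without it.

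SRF binds CArG boxes in DNA and is switched on by MRTF cofactors, which globular actin holds in the cytoplasm until it is built into filaments, or by TCF cofactors downstream of growth factor kinases. YAP and TAZ enter the nucleus in spread or tense cells and act through the TEAD factors, while the Hippo kinases keep them out. In preadipocytes both arms of this mechanosensing are known to oppose fat cell differentiation, which goes with cell rounding and loss of stress fibres.

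Promoters are shown for the motifs these regulators are known to bind. RefSeq promoter sequence of build GRCm38.p6 was at hand for 7 of the 9 genes. The 250 bases before the annotated start were searched on both strands for the CArG box (CC and GG around a run of A or T bases, 10 bases in all) and for the TEAD motif GGAATG. The sequences below belong to the genes that carried a CArG box or that changed most and had a promoter sequence. They run 5′ to 3′ along the gene's strand, and capitals mark the motifs, with CATTCC being GGAATG on the other strand.
Srf, chr17:46556163-46556412, minus strand: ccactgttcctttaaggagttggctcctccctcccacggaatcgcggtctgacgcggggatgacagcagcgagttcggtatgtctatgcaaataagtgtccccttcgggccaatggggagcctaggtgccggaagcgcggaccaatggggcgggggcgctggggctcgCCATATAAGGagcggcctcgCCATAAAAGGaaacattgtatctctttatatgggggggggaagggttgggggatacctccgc
Vcl, chr14:20929148-20929397, plus strand: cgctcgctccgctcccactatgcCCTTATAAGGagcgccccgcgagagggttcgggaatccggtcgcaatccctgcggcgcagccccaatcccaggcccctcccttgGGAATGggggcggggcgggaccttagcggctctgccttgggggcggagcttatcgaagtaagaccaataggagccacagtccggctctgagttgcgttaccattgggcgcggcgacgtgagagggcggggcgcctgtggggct
Ankrd1, chr19:36119845-36120094, minus strand: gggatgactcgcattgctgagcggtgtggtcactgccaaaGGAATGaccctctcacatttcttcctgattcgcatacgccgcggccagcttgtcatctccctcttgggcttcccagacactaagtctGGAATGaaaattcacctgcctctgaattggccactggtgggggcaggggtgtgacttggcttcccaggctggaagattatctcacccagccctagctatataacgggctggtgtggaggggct
Ccn1, chr3:145649986-145650235, minus strand: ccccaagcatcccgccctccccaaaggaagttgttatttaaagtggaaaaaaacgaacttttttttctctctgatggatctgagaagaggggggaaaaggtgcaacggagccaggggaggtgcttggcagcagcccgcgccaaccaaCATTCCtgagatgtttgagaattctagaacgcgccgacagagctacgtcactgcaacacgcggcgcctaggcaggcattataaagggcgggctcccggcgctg
A CArG box was found in 2 of the 7 promoters, in 2 places for Srf itself and 1 for Vcl, against 1.47% of all 32851 promoters of the table. GGAATG was found in 5 of the 7, namely Ccn1, Ankrd1, Vcl, Amotl2 and Vgll4, against 12.6% of all promoters. Ankrd1 carried it in 2 places, and no motif overlapped another. These matches describe the letters of the windows and are no measure of binding.

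Ccn1, Ccn2 and Thbs1, 3 genes for secreted matricellular proteins that sit in the matrix and signal through integrins, rose steeply in all 3 arms within the first hour. Ccn2 intensities at 0, 0.25, 0.5, 1, 2 and 3 h were 369.7, 1253, 4094, 12023, 13745 and 11397 with prieurianin, 559, 1252, 4187, 9466, 6653 and 3982 with DMSO and 435, 1275, 4324, 9197, 5625 and 3513 in untreated cells. From 0.25 h on, each arm lay above all 0 h arrays. The peak over 0 h was 35.7-fold at 2 h with prieurianin, 16.5-fold at 1 h with DMSO and 20.4-fold at 1 h in untreated cells. Each fold is over the arm's own single 0 h array, and that of prieurianin was the lowest. Folds and log2 differences here are on the log2(intensity + 16) scale, which understates changes of dim genes. With the arms taken as replicates, Ccn2 exceeded its 0 h level by 3.18 ± 0.33 at 0.5 h (± SE, limma adjusted p = 0.00011) and by 4.45 ± 0.33 at 1 h (adjusted p = 1.4e-06). At 0.25 h the difference was 1.46 ± 0.33 and did not pass (adjusted p = 0.53).

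Ccn1, the closest relative of Ccn2 among the members, peaked at 0.5 to 1 h. Its intensities at 0, 0.25, 0.5, 1, 2 and 3 h were 5322, 16668, 41912, 40133, 29964 and 26305 with prieurianin, 6750.1, 17931, 38726, 41583, 19551 and 13348 with DMSO and 8740.4, 18670.5, 42539, 37925, 14890.1 and 10867 in untreated cells. Ccn1 was above 0 h by 2.59 ± 0.28, adjusted p = 0.00018, at 0.5 h and by 1.20 ± 0.28, adjusted p = 0.0051, at 3 h. Thbs1, thrombospondin 1, peaked at 2 h in every arm, at 4768 units with prieurianin, 3532 with DMSO and 4660.1 in untreated cells. Its change from 0 h to 2 h was 3.39 ± 0.27, adjusted p = 1.2e-06. The 0 h arrays of Thbs1 already differed, at 521, 181 and 635 units in the same order of arms, so the peak was 8.92-fold, 18-fold and 7.18-fold over its own 0 h array.

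The other members moved later or less. Ankrd1, an ankyrin repeat protein of muscle and stretched cells, peaked at 1 h in each arm (1717 units with prieurianin, 1441 with DMSO and 2083 untreated), and its change of 1.46 ± 0.38 just missed the threshold (adjusted p = 0.051). Vcl, vinculin, which links integrins and cadherins to actin, rose by 0.90 ± 0.20, adjusted p = 0.0066, at 2 h and by 1.12 ± 0.20, adjusted p = 0.00086, at 3 h. The Vcl call at 2 h was lost in the 2 control arms alone (adjusted p = 0.059). Amotl2, an angiomotin that binds YAP and is also its target, rose at 2 h (0.44 ± 0.12, adjusted p = 0.02), a call lost with median centring (0.091), with values as deposited (0.33) and in the control arms alone (0.17). Zyx, zyxin, a focal adhesion protein that moves to strained stress fibres, was at 0.33 ± 0.23 at 1 h and 0.40 ± 0.23 at 3 h, and Vgll4, a cofactor that competes with YAP for TEAD, at -0.39 ± 0.14 at 0.5 h and 0.35 ± 0.14 at 3 h, none past the threshold.

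Across the first 3 h, 0, 3, 3, 5 and 4 of the 8 members were above 0 h by limma at 0.25, 0.5, 1, 2 and 3 h, against 0.0469%, 0.539%, 2.02%, 7.97% and 12.4% of all genes tested, and 0 were below it, against 0%, 0.0938%, 2.09%, 10.9% and 19.2%. At 0.25 h 3 members had an unadjusted p under 0.05, as did 4.06% of all genes. The 3 matricellular genes were thus among the 69 genes called higher at 0.5 h out of 12792. In this test p-values rest on 3 arrays per time, 1 per arm.

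**Figure D1:**
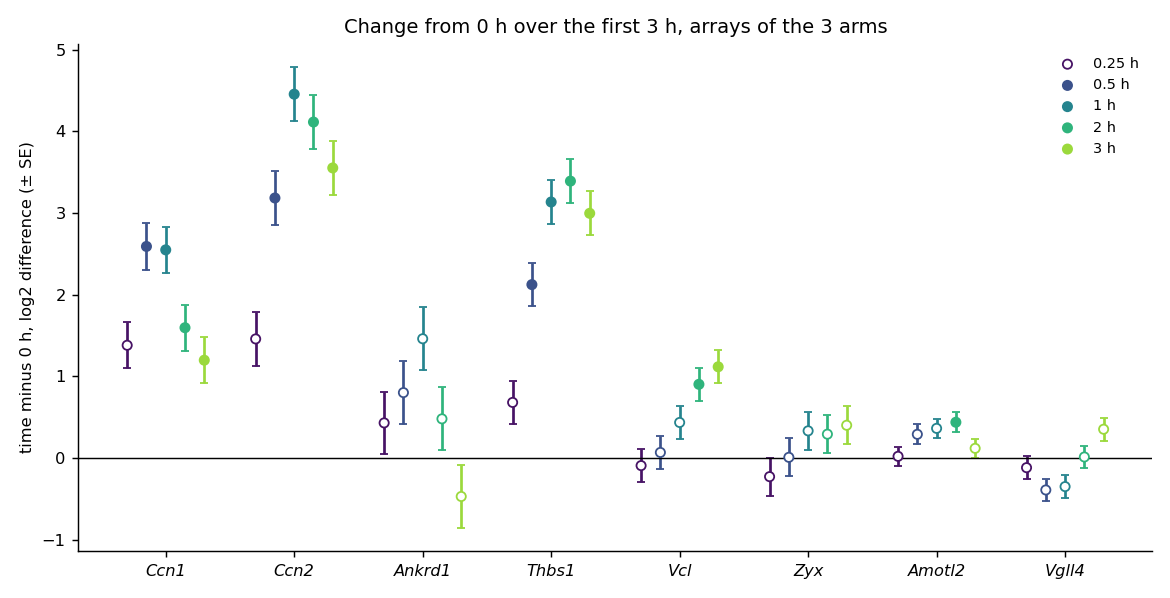
Change of each gene from 0 h over the first 3 h (log2 difference ± SE over the 3 arms, limma); filled points passed an adjusted p of 0.05. Ccn2 reached 4.45 at 1 h and Thbs1 3.39 at 2 h, while Zyx and Vgll4 had no filled point.

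From 0.25 to 1 h the 3 arms differed by at most 0.53 on the log2 scale for Ccn1, Ccn2 and Ankrd1. At 0 h they spread over 0.71 for Ccn1, 0.58 for Ccn2 and 0.47 for Ankrd1. By 3 h the prieurianin array was higher. Ccn2 stood at 11397 units with prieurianin, 3982 with DMSO and 3513 untreated. Ankrd1 stood at 1223 with prieurianin, 261 with DMSO and 263 untreated. These are single arrays with no replicate check. Over 0.25 to 3 h together, limma called 0 members and 0% of all genes between prieurianin and DMSO (0 members and 3.54% of genes between DMSO and untreated cells), while 2 members and 300 genes (2.35%) had an unadjusted p under 0.05. The 2 members were Zyx (0.40 ± 0.18) and Vgll4 (-0.72 ± 0.18). Vgll4 was lower with prieurianin at 5 of 5 times without overlap (0.664% of all genes lay wholly below DMSO), at 388, 316, 381, 469.6 and 561 units against 686, 684, 573, 713 and 829 with DMSO, and it was already lower at 0 h (498 against 674). Against untreated cells Vgll4 was the 1 member called (-0.67 ± 0.18, adjusted p = 0.02; 1.77% of all genes were called lower and 4.16% higher). That call was lost with median centring (adjusted p = 0.083) or without 0.25, 2 or 3 h.

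In both control arms Ccn1, Ccn2, Ankrd1 and Thbs1 then fell below their 0 h level by 9 h. With DMSO, Ccn2 intensities at 5, 9, 12, 15, 24, 36 and 48 h were 781, 105, 64.6, 62.2, 58.2, 53.1 and 53.2, and at 96, 144, 192, 240 and 288 h they were 37.5, 29, 189, 129 and 157. In untreated cells they were 1898, 72.1, 63.2, 69.1, 47.3, 56.8 and 47.7 and then 21, 25.5, 153, 148 and 142 at the same times. Ccn2 dropped below its 0 h level by 9 h in both and lay under the filter level at 2 DMSO and 4 untreated times. Its mean log2 level with DMSO was 6.70 at 96 to 288 h against 11.57 at 0 to 3 h, a difference of -4.86 ± 1.01 (adjusted p = 0.00017), and in untreated cells it was 6.53 against 11.44 (-4.91 ± 1.01, adjusted p = 0.00012).

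The late falls covered the same 5 genes in both control arms. Besides Ccn2, with DMSO Ccn1 changed by -3.53 ± 0.63, Ankrd1 by -3.07 ± 0.67, Thbs1 by -2.70 ± 0.78 and Zyx by -1.51 ± 0.23 at 96 to 288 h relative to 0 to 3 h, each past the threshold. In untreated cells these changes were -4.05 ± 0.63, -2.92 ± 0.67, -3.79 ± 0.78 and -1.21 ± 0.23. So 5 of 8 members were lower and 0 higher, against 16.1% lower and 16.5% higher of all genes with DMSO and 17.3% and 17% untreated. Vcl, Amotl2 and Vgll4 did not pass in either control arm over this span. At 5 to 48 h the 3 matricellular genes, Ankrd1 and Amotl2 were lower than at 0 to 3 h in both control arms, which made 5 of 8 with DMSO (9.48% of all genes lower, 7.87% higher). In untreated cells Zyx was a sixth (-0.84 ± 0.21, adjusted p = 0.004; 8.01% lower) and Vgll4 rose (0.78 ± 0.17, adjusted p = 0.0014; 8.3% higher). Ccn1, Ccn2, Ankrd1 and Thbs1 were all higher at 288 h than at 96 h in both control arms. Ankrd1 was at 14.5 and 255 units at 96 and 288 h with DMSO and 17 and 294 untreated. Thbs1 was at 66.7 and 556 units with DMSO and 40.3 and 614 untreated, at 288 h above its 0 h array with DMSO and close to it untreated, so its late fall is relative to a window that holds the early peak.

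**Figure D2:**
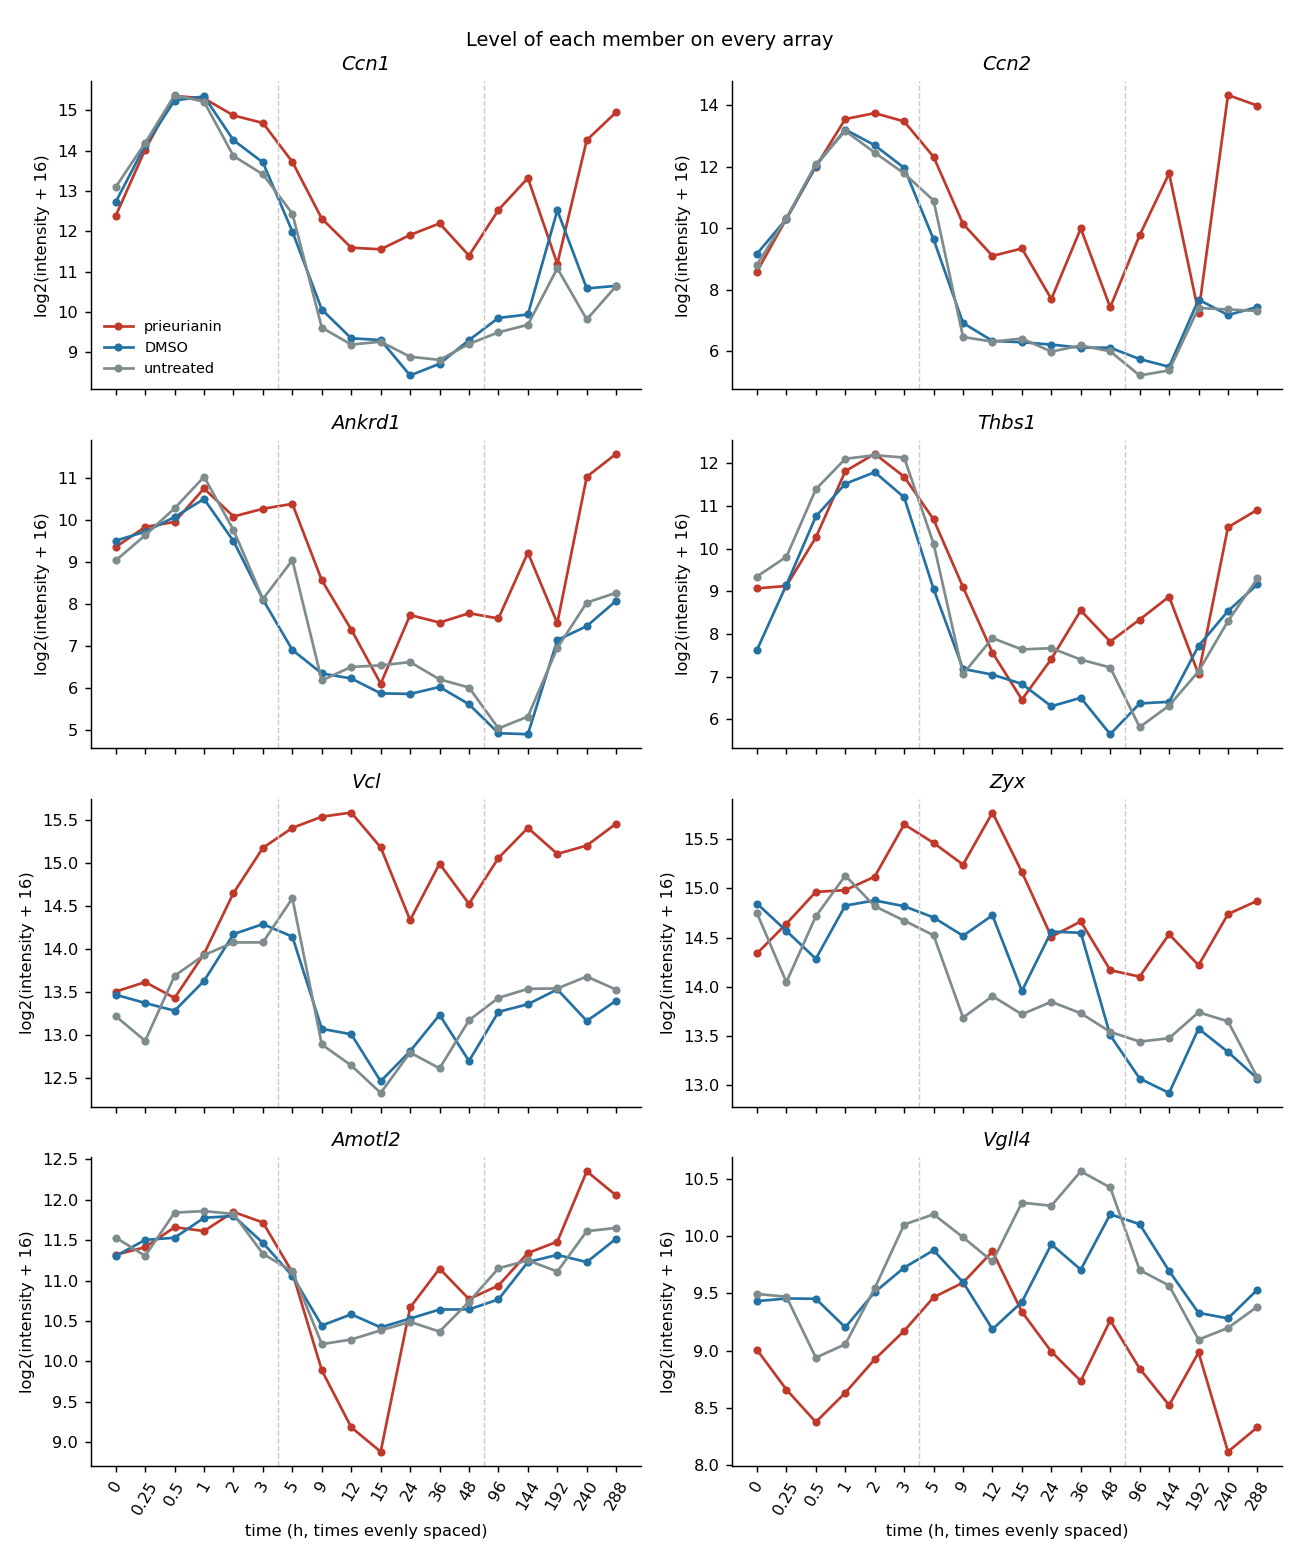
Level of each gene on every array, log2(intensity + 16) against time, prieurianin in red, DMSO in blue and untreated in grey; dashed lines part the windows 0 to 3 h, 5 to 48 h and 96 to 288 h. Ccn1, Ccn2, Ankrd1 and Thbs1 rise in all arms by 2 h, fall far in the controls, and stay higher or return with prieurianin, less so on the array at 192 h.

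At 5 to 48 h the same genes were higher with prieurianin than in the controls, save Thbs1 against untreated cells. Ccn2 intensities were 5112, 1114, 533, 633, 191, 1003 and 156 at 5, 9, 12, 15, 24, 36 and 48 h, every one above the DMSO and untreated values at that time. The gap to DMSO was 2.63 ± 0.53 (adjusted p = 0.0011) and the gap to untreated cells 2.54 ± 0.53 (adjusted p = 0.00046). Over the window as a whole the ranges overlapped, 5 h being the highest time in every arm.

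For Ccn1 the values at 5, 9, 12, 15, 24, 36 and 48 h were 13462, 5066, 3069, 2985, 3824, 4669 and 2677 with prieurianin, against 4057, 1049, 634, 615, 327, 403 and 614 with DMSO and 5519.8, 765, 567, 597, 457, 432 and 574 untreated. Prieurianin was the highest arm at 7 of 7 times, by 2.51 ± 0.36 over DMSO (adjusted p = 1.3e-05) and by 2.47 ± 0.36 over untreated cells (adjusted p = 5e-06).

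Ankrd1 was 1327, 364, 153, 53, 198, 173 and 205 with prieurianin at those times, against 104, 65.7, 59.2, 42.8, 42.3, 49.4 and 33.1 with DMSO and 514, 56.8, 75, 77.4, 82.5, 58.1 and 48.8 untreated. The gap was widest at 5 h to DMSO and at 9 h to untreated cells, and at 15 h untreated cells were higher. Fitted differences were 1.81 ± 0.34 to DMSO (adjusted p = 0.00047) and 1.20 ± 0.34 to untreated cells (adjusted p = 0.0071, and 0.18 without a term for time). The DMSO signal from 15 h on and the untreated signal at 48 h lay below the filter level of 51.2 units. The size of these differences therefore also depends on the constant added.

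Thbs1 was 1630.2, 532, 173, 72.1, 155, 359 and 209.9 with prieurianin, against 516, 129, 116, 97.7, 63, 74.7 and 34.2 with DMSO and 1093, 118, 223, 183, 187, 153 and 132 untreated. It passed against DMSO (1.29 ± 0.29, adjusted p = 0.0028) but not against untreated cells (0.37 ± 0.29, adjusted p = 0.36), and DMSO was itself below untreated cells (-0.92 ± 0.29, adjusted p = 0.02). Its gap to DMSO was lost with time as a random block (adjusted p = 0.065).

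Vcl behaved differently from the matricellular genes: with prieurianin it went on rising to 12 h and stayed high. Its intensities at 5, 9, 12, 15, 24, 36 and 48 h were 43589.8, 47709, 49340.2, 37256, 20716, 32656 and 23622 with prieurianin, against 18124, 8607, 8238, 5635, 7185, 9635 and 6638 with DMSO and 24699, 7583, 6403, 5125, 7107, 6252 and 9226 untreated. The prieurianin and DMSO arrays did not overlap, as for 1.02% of all genes in that direction, and the difference was 2.02 ± 0.17 (adjusted p = 9.2e-10), close to that against untreated cells, 2.08 ± 0.17 (adjusted p = 4.5e-10). Zyx ran from 18413 to 55889 units with prieurianin (median 36742), 11636 to 27099 with DMSO (median 23961) and 11920 to 23539 untreated (median 13592), all ranges overlapping. It was higher by 0.64 ± 0.15, adjusted p = 0.0056, against DMSO and by 1.15 ± 0.15, adjusted p = 1.2e-06, against untreated cells.

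In all, 6 of the 8 members were higher with prieurianin than with DMSO at 5 to 48 h and 0 were lower, where 6.62% of all genes were higher and 4.51% lower. The summed smooth muscle markers (Myh11, Smtn and Lmod1) were at 1467 to 2950 units with prieurianin in this window, against 477 to 1074 with DMSO. In untreated cells they were at 516 to 1686, which overlaps the prieurianin range. The part of these markers in the result was not tested. With median centring in place of quantile normalisation the 6 members were again called, while all genes split 555 higher to 26 lower instead of 847 to 577. Against untreated cells 5 were higher and 1, Vgll4, lower (13% and 15.5% of all genes). Without a term for time, which leaves the shared course in the error, only Ccn1 and Vcl passed against DMSO (2 of 8). Between DMSO and untreated cells Zyx was higher (0.51 ± 0.15, adjusted p = 0.017) and Thbs1 and Vgll4 (-0.51 ± 0.15, adjusted p = 0.015) lower, so 1 member was higher and 2 lower, against 9.47% and 10.8% of all genes. Each of these 3 calls was lost under some settings: Zyx with median centring (adjusted p = 0.33), Vgll4 without 15 h (0.064) and Thbs1 without 24 or 48 h (0.065 each). The comparisons of prieurianin with DMSO and with untreated cells share the prieurianin arrays.

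With prieurianin 3 of the 6 genes also fell in the course. Relative to 0 to 3 h, a window that holds the early peak, Ccn1 fell by 2.34 on the log2 scale (adjusted p = 0.0037), Ankrd1 by 2.11 (0.014) and Thbs1 by 2.47 (0.013), and Ccn2 changed by -2.52 ± 0.93 without passing (adjusted p = 0.059). Zyx was at 0.05 ± 0.21 and Vcl rose (1.03 ± 0.27, adjusted p = 0.0067). Set against 0 h alone, from single arrays, Ccn1 at 24 and 48 h was at -0.48 and -0.99 with prieurianin, against -4.30 and -3.42 with DMSO. Ccn2 first went below its own 0 h level at 24 h, against 9 h in both controls, and Ccn1 at 9 h, against 5 h. At 36 h Ccn2 with prieurianin was again above its 0 h level (9.99 against 8.59). For both genes the prieurianin array at 0 h was the lowest of the arms, so these crossings start from unlike levels. With Amotl2, 4 of 8 members were lower and, with Vcl and Vgll4, 2 higher in the prieurianin course at 5 to 48 h (7.24% and 7.54% of all genes). The Ankrd1 call was lost without 15 h (adjusted p = 0.054), and the Vgll4 call without each of several single times and under both other scalings.

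At 96 to 288 h Ccn2 came back with prieurianin. Its intensities at 96, 144, 192, 240 and 288 h were 861, 3518, 137, 20674 and 16285 with prieurianin, against 37.5, 29, 189, 129 and 157 with DMSO and 21, 25.5, 153, 148 and 142 untreated. At 240 and 288 h it exceeded its early peak in that arm, and at 192 h it lay just below both controls. The difference to DMSO was 4.73 ± 0.62 (adjusted p = 4e-06) and 6.0 without the prieurianin array at 192 h, and to untreated cells 4.90 ± 0.62 (adjusted p = 1.4e-06) and 6.17 without it.

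Ccn1 followed with 5890.1, 10205, 2319.6, 19587 and 31707 units with prieurianin, against 907, 962, 5845, 1515 and 1586 with DMSO and 704, 803, 2151, 882 and 1580.3 untreated. At 192 h the DMSO array was the highest of the arms for this gene. It was higher by 2.54 ± 0.43, adjusted p = 0.00011, against DMSO, by 3.40 without the prieurianin array at 192 h, and by 3.11 ± 0.43, adjusted p = 4.3e-06, against untreated cells (3.97 without that array). Ankrd1 was 187, 585, 171, 2085 and 3054 with prieurianin, against 14.5, 14, 126, 162 and 255 with DMSO and 17, 24.1, 108, 247 and 294 untreated. It was above DMSO at 5 of 5 times (2.90 ± 0.40, adjusted p = 7.4e-06; 3.48 without that array) and above untreated cells by 2.68 ± 0.40, adjusted p = 1.3e-05 (3.26 without it). On the low DMSO arrays at 96 and 144 h the signal was below the filter level, so its log2 difference depends on the constant added, from 2.32 with 64 to 3.32 with 1.

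Thbs1 was 307, 453, 117, 1435 and 1911 with prieurianin, against 66.7, 69, 195, 355 and 556 with DMSO and 40.3, 63.9, 123, 299.6 and 614 untreated. Its gap was 1.5 ± 0.34, adjusted p = 0.0025, to DMSO and 1.76 ± 0.34, adjusted p = 0.00028, to untreated cells. Without the prieurianin array at 192 h these were 2.0 and 2.26. The first was lost with time as a random block (adjusted p = 0.053), and both were lost without a term for time (0.27 and 0.14).

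The 2 adhesion genes stayed above both controls at 192 h. Vcl was 34192, 43589.8, 35342, 37799.5 and 45139.9 with prieurianin, against 9873, 10500.5, 11835, 9178 and 10814 with DMSO and 11056, 11887, 11932, 13131 and 11812 untreated, and the lowest prieurianin array was above the highest control array. The difference was 1.90 ± 0.21, adjusted p = 1.3e-07, to DMSO and 1.70 ± 0.21, adjusted p = 5.8e-07, to untreated cells (1.96 and 1.76 without the 192 h array). Zyx was 17591, 23721, 19066, 27337 and 30027 with prieurianin, against 8578, 7748, 12188, 10345 and 8575 with DMSO and 11128, 11397, 13685, 12836 and 8643 untreated, again without overlap. Of all genes, 1.31% lay wholly above DMSO and 3.03% wholly above untreated cells. The Zyx difference was 1.30 ± 0.18, adjusted p = 8.5e-06, to DMSO and 1.02 ± 0.18, adjusted p = 0.00012, to untreated cells. Leaving out the 192 h array gave Zyx differences of 1.45 and 1.16.

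**Figure D3:**
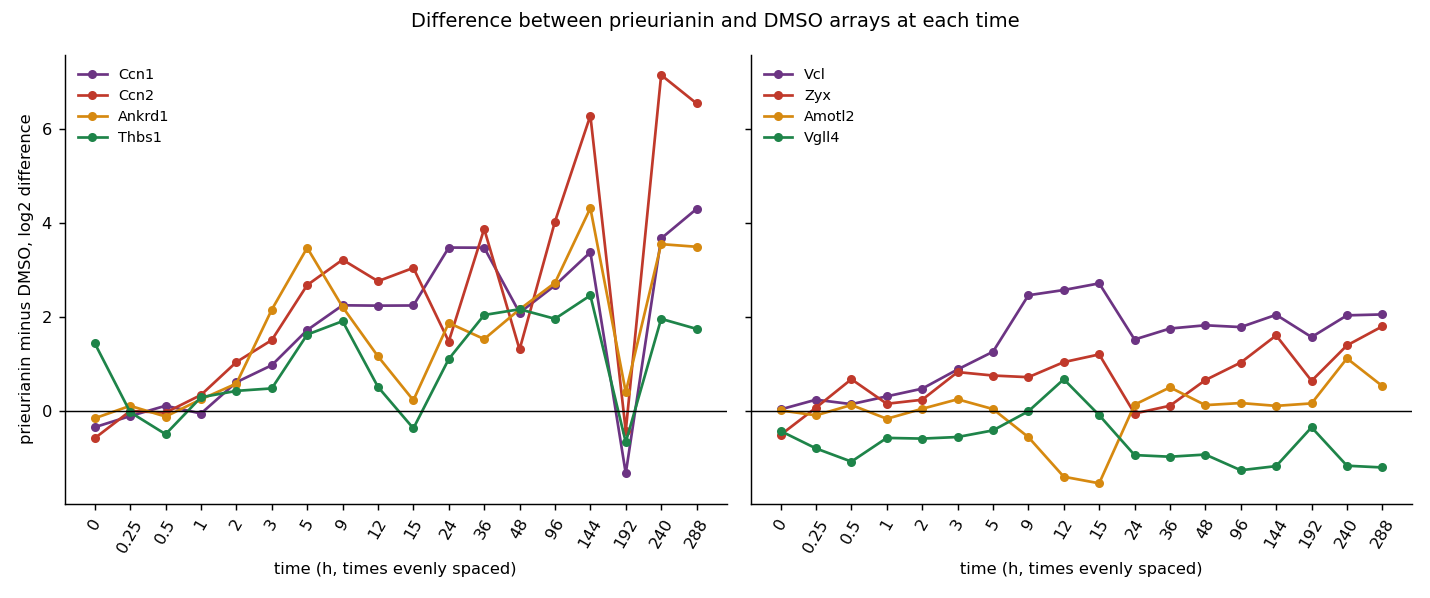
Difference between the prieurianin and DMSO arrays (log2) at each of the 18 times, 1 pair of arrays a point; left, Ccn1, Ccn2, Ankrd1 and Thbs1, right, Vcl, Zyx, Amotl2 and Vgll4. At 192 h the left-hand genes lie between -1.33 and 0.40, while Vcl is at 1.58.

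The 2 members that restrain YAP took other courses. At each of the 5 late times Vgll4 was lowest with prieurianin, and its range overlapped that of neither control. It was at 443, 352, 490.1, 262 and 306 units against 1084, 813, 627, 606 and 724 with DMSO and 817, 743, 531, 571 and 652 untreated. Of all genes, 0.962% lay wholly below DMSO and 1.51% wholly below untreated cells. Vgll4 differed by -1.03 ± 0.18, adjusted p = 0.00017, from DMSO and by -0.83 ± 0.18, adjusted p = 0.001, from untreated cells. At 5 to 48 h it was -0.38 ± 0.15 against DMSO and did not pass (adjusted p = 0.11), and at 9 to 15 h the 2 arms came together, prieurianin being higher at 12 h (917 against 567). Without 12 h it passed (-0.56, adjusted p = 0.015). Against untreated cells it was lower in that window (-0.89 ± 0.15, adjusted p = 4.1e-05). Its late differences were -1.20 and -1.01 without the prieurianin array at 192 h. Over the 17 times after 0 h Vgll4 with prieurianin was below both controls at 16. At 0 h it was already below both, by -0.42 to DMSO and -0.49 to untreated cells. Its change from 0 to 3 h to 96 to 288 h was not called different between arms by limma. The difference of courses was -0.36 ± 0.27 against DMSO (adjusted p = 0.70) and -0.19 ± 0.27 against untreated cells (adjusted p = 0.85).

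Amotl2 passed in neither window (-0.38 ± 0.18, adjusted p = 0.17, at 5 to 48 h and 0.42 ± 0.21, adjusted p = 0.17, at 96 to 288 h against DMSO), with 1 exception, a lower level at 5 to 48 h without 36 h (-0.53, adjusted p = 0.049). Without the prieurianin array at 192 h the late difference was 0.44 (adjusted p = 0.16). Its course crossed that of DMSO. At 9, 12 and 15 h it was 932, 566 and 456 units with prieurianin, against 1377, 1517 and 1355 with DMSO and 1171, 1219 and 1319.8 untreated. At 240 and 288 h it was 5210 and 4231 with prieurianin, against 2383 and 2919 with DMSO and 3111 and 3201 untreated. Prieurianin was thus the lowest arm at 9 to 15 h and the highest at 240 and 288 h, each from single arrays with no replicate check.

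At 96 to 288 h the count was 6 members higher and 1 lower against DMSO, where 7.32% of all genes were higher and 9.36% lower, and likewise 6 and 1 against untreated cells (11.4% and 10.5%). Both counts were also 6 and 1 without the prieurianin array at 192 h, where 26.7% and 29.5% of all genes were called in either direction. With values as deposited the members called against DMSO were again 6 and 1, while all genes split 429 higher to 950 lower instead of 936 to 1197. Between DMSO and untreated cells limma called 0 members (3.65% of all genes), with 0 at an unadjusted p under 0.05. Summed fat cell marker intensity in this window was 48802 to 264511 units with prieurianin, against 154610 to 243782 with DMSO and 150729 to 236328 untreated. The smooth muscle marker sum was 1934 to 4592 units with prieurianin, against 607 to 806 with DMSO and 584 to 837 untreated. The part of either in these results was not tested. In cultures of mixed state, fewer cells of one kind and less RNA per cell cannot be told apart.

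**Figure D4:**
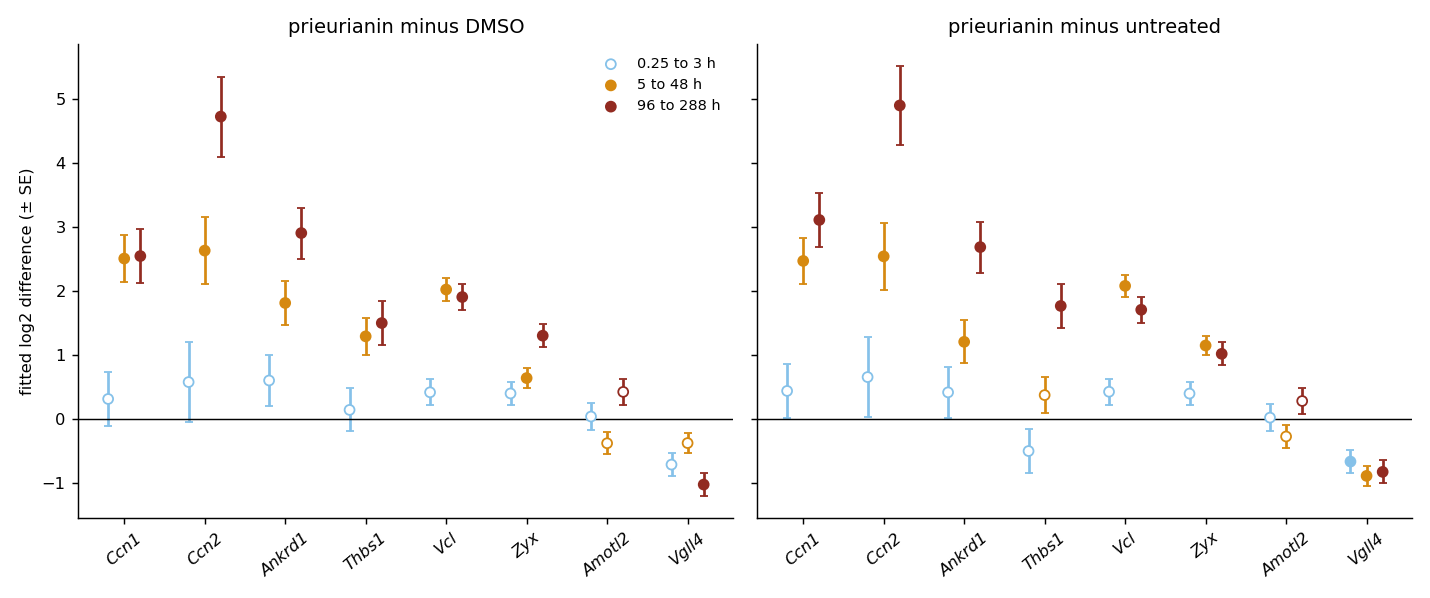
Fitted difference (log2 ± SE, limma) of prieurianin from DMSO, left, and from untreated cells, right, in 3 windows of time; filled points passed an adjusted p of 0.05. From 5 h on Ccn1, Ccn2, Ankrd1, Vcl and Zyx are filled and above 0 in both panels, and Vgll4 lies below 0 throughout.

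Whether the gap to DMSO grew from 5 to 48 h to 96 to 288 h was tested directly. Limma called 0 of 8 members (6.74% of all genes called), with 5 at an unadjusted p under 0.05 (22.6% of all genes). Ccn2 had the largest fitted difference at 2.10 ± 0.82, adjusted p = 0.11. Without the prieurianin array at 192 h 5 members passed (16% of all genes): Ccn2 (3.37, adjusted p = 1.4e-05), Ankrd1 (1.67, 0.011), Zyx (0.81, 0.018) and Amotl2 (0.82, 0.049) grew, and Vgll4 (-0.82, 0.014) moved further down. Leaving out the whole of 36 h or 48 h, in all arms, also let 2 and 1 members pass.

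Set against their own 0 to 3 h level, the 5 genes that were lower late in both controls had smaller fitted changes with prieurianin, but the difference between courses did not pass the threshold. The prieurianin course from 0 to 3 h to 96 to 288 h was -1.19 ± 0.63 for Ccn1, -0.52 ± 1.01 for Ccn2, -0.64 ± 0.67 for Ankrd1, -1.56 ± 0.78 for Thbs1 and -0.46 ± 0.23 for Zyx, none called. Vcl alone was called, 1.19 ± 0.30, adjusted p = 0.0015 (1 of 8 higher and 0 lower, against 15.3% and 15% of all genes). Differences between the prieurianin and DMSO courses were 4.34 ± 1.43 for Ccn2 (adjusted p = 0.22) and 1.55 ± 0.42 for Vcl (0.092), and 0 of 8 were called (0.336% of all genes), with 5 at an unadjusted p under 0.05 (9.19% of all genes). Against the untreated course 0 of 8 were called (0.594%), with 6 at that level (11.4%). Without the prieurianin array at 192 h Ccn2 (5.39, adjusted p = 0.013), Vcl (1.59, 0.023) and Zyx (1.12, 0.041) passed against the DMSO course (4.07% of all genes), and Ccn1 (3.38, 0.014) and Ccn2 (5.44, 0.011) against the untreated course (4.91%).

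The second probes of Ccn1 and Thbs1 were also called higher with prieurianin than with DMSO in both later windows. For Ccn1 the second probe gave 2.49 ± 0.38 at 5 to 48 h and 2.54 ± 0.45 at 96 to 288 h against DMSO (adjusted p = 3.5e-05 and 0.00022). For Thbs1 it gave 0.89 ± 0.23 and 1.37 ± 0.27 (adjusted p = 0.011 and 0.00079), but the lower Thbs1 level with DMSO than untreated at 5 to 48 h was not called by it (-0.58 ± 0.23, adjusted p = 0.07).

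Across the 54 arrays Ccn1, Ccn2, Ankrd1 and Thbs1 moved most closely together, with Pearson r from 0.856 to 0.936 between pairs, the highest for Ccn1 and Ccn2. Vgll4 ran against every other member (r from -0.611 to -0.355), and Vcl and Zyx were at 0.597 with each other. The arrays share times, arms and depth, so these values describe and do not test. The non-member most like each gene was Gpr176, an orphan G protein-coupled receptor, for Ccn1 (r = 0.925), Ccn2 (0.899) and Ankrd1 (0.918). It was Akap12, a kinase anchoring scaffold, for Thbs1 (0.926), Palld, the actin-bundling protein palladin, for Vcl (0.895), and Plekhg2 for Zyx (0.910). For Amotl2 it was Fam107b (0.851) and for Vgll4 Ubn1, a histone chaperone subunit (0.807).

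Other genes of the same pathways were followed in 5 lists. Their counts stand beside 6.62% higher and 4.51% lower of all genes for prieurianin against DMSO at 5 to 48 h, and 7.32% and 9.36% at 96 to 288 h. For prieurianin against untreated cells these shares were 13% and 15.5%, and 11.4% and 10.5%. In either direction, 11.1% and 16.7% of all genes were called against DMSO in the 2 windows. Without the prieurianin array at 192 h these became 14.8% and 26.7%, so calls rose over the whole array. Of 24 tested MRTF and SRF targets, genes of the contractile and adhesion apparatus, 23 were higher with prieurianin than with DMSO at 5 to 48 h and 0 lower, with a median of 1.35 against -0.01 over all genes. Actg2 (5.93 ± 0.44), Myl9 (4.88 ± 0.40), Acta1 (3.03 ± 0.26) and Acta2 (2.03 ± 0.33) led, the last saturated on 6 of the 7 prieurianin arrays. At 96 to 288 h 21 were higher and 0 lower (median 1.38, all genes 0.02), led by Actg2 (7.38 ± 0.52), Myl9 (6.16 ± 0.47), Acta1 (3.85 ± 0.30) and Tagln (3.42 ± 0.23), contractile actins, a myosin light chain and transgelin. In the DMSO course 15 of the 24 fell from 0 to 3 h to 96 to 288 h and 2 rose (median -1.04; 16.1% and 16.5% of all genes). Without the prieurianin array at 192 h the late count was again 21, with a median of 1.57. Against untreated cells 22 of the 24 were higher at 5 to 48 h and 20 at 96 to 288 h, with 0 lower in both.

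YAP and TEAD targets outside the members did not move as a block. Of 17 tested, 5 were higher and 1 lower at 5 to 48 h (median 0.04), and 5 were higher and 4 lower at 96 to 288 h (median 0.23). F3, tissue factor, was higher at 5 to 48 h (2.44 ± 0.28, adjusted p = 1.8e-07) and less so later (1.03 ± 0.33, 0.029), and Crim1, a membrane protein that binds BMPs, was higher in both (0.83 ± 0.17, 0.0015, and 1.28 ± 0.21, 5.8e-05). Gadd45a, a stress-induced growth arrest gene, was higher by 0.80 ± 0.21 and 0.85 ± 0.25 in these windows (adjusted p = 0.011 and 0.017). Dock5, a Rac exchange factor, was higher at 5 to 48 h (0.74 ± 0.13, 0.00026), and Tgfb2, a TGF-beta ligand, at 96 to 288 h (0.65 ± 0.19, 0.017). Lower genes were Axl, a receptor tyrosine kinase, at 5 to 48 h (-0.46 ± 0.09, 0.00072), and Ccdc80, a secreted matrix protein (-1.56 ± 0.22, 1.4e-05), and Igfbp3, an IGF carrier (-0.75 ± 0.24, 0.028), at 96 to 288 h. The late count became 6 higher and 4 lower without the prieurianin array at 192 h. Against untreated cells 4 were higher and 2 lower in each of these windows.

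Yap1, Wwtr1, Mrtfa and Mrtfb each differed less from DMSO than the median of the MRTF and SRF targets (1.35 and 1.38 in the 2 windows). The SRF cofactor Fhl2 differed by more than that median. Yap1 was higher at 5 to 48 h by 0.27 ± 0.08 (adjusted p = 0.019) and at 0.22 ± 0.09 later (0.11), and Wwtr1, which encodes TAZ, was higher by 0.63 ± 0.10 at 5 to 48 h (4.1e-05) and at 0.27 ± 0.12 later (0.11). Tead1, a DNA-binding partner of YAP and TAZ, was higher in both windows (0.70 ± 0.13, 4e-04, and 0.72 ± 0.15, 0.0012). Of 16 tested Hippo and TEAD genes 4 were higher and 0 lower at 5 to 48 h (median 0.17), and 3 were higher and 2 lower at 96 to 288 h (median 0.22), Sav1, a scaffold of the Hippo kinases (0.37 ± 0.10, adjusted p = 0.013), and Tead3 (0.32 ± 0.09, 0.017) among the higher and the lower ones being Nf2, merlin (-0.37 ± 0.12, adjusted p = 0.025), and Amotl1 (-0.31 ± 0.10, 0.023). These counts became 5 and 0, and 6 and 2, without the prieurianin array at 192 h, beside 14.8% and 26.7% of all genes in either direction. They did not hold against untreated cells at 5 to 48 h, where 1 of the 16 was higher and 2 lower (median -0.04). At 96 to 288 h 2 were higher and 3 lower than in untreated cells (median 0.11). With DMSO against untreated cells at 5 to 48 h 0 were higher and 4 lower (median -0.19), beside 9.47% and 10.8% of all genes. Mrtfa was at -0.15 ± 0.11 and 0.31 ± 0.13 and Mrtfb at 0.21 ± 0.13 and 0.13 ± 0.15 in the 2 windows, none past the threshold. Of 7 tested SRF cofactors only Fhl2, a LIM protein that is also on the list of SRF targets, was higher (1.59 ± 0.23, 1.3e-05, and 1.56 ± 0.27, 0.00017). Against untreated cells 1 of these 7 was higher and 1 lower at 5 to 48 h, and 2 and 0 at 96 to 288 h.

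TCF and SRF targets, the growth factor branch, rose early: 6 of 8 were above 0 h at 1 h in the 3 arms and 0 below (median 1.79; 2.02% and 2.09% of all genes). With prieurianin 2 were higher and 1 lower than with DMSO at 5 to 48 h (median 0.09): Egr2 (1.47 ± 0.24, adjusted p = 0.00011) and Fos (0.65 ± 0.19, 0.019) were higher, and Egr1, saturated on 6 arrays, all outside the prieurianin arrays of this window, was lower (-0.85 ± 0.17, 0.0011). At 96 to 288 h Fos was higher (0.85 ± 0.22, 0.0074) and Egr1 lower (-0.99 ± 0.20, 0.0012), 1 each of 8 (median 0.06). The counts became 3 and 1, and 2 and 1, when the prieurianin array at 192 h was left out. Against untreated cells 1 was higher and 1 lower at 5 to 48 h, and 0 were higher and 1 lower at 96 to 288 h.

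**Figure D5:**
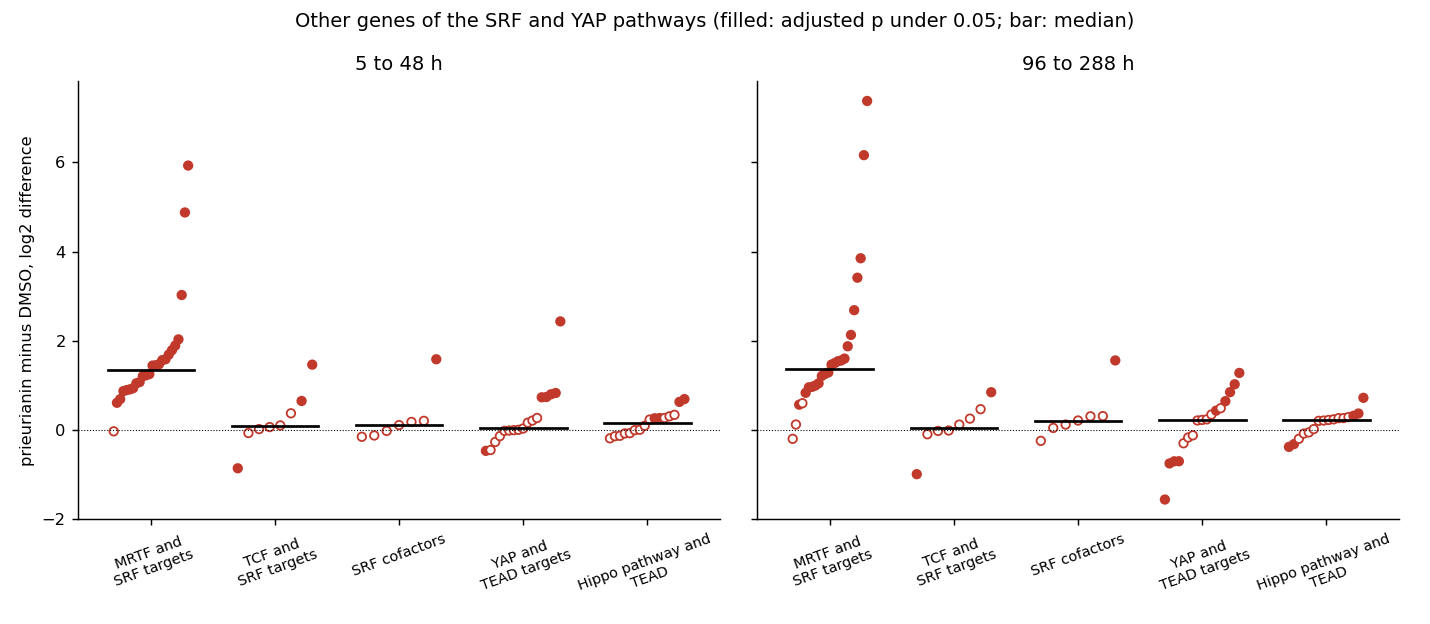
Difference of prieurianin from DMSO (log2) for the genes of 5 pathway lists at 5 to 48 h, left, and 96 to 288 h, right; each point is a gene, filled where its adjusted p was under 0.05, and the bar is the list's median. The MRTF and SRF targets have medians of 1.35 and 1.38, and the medians of the other 4 lists lie between 0.04 and 0.23.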

How the data were processed

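Total RNA of each culture was purified, amplified to Cy5-labelled RNA and hybridised to a single-colour Phalanx mouse oligonucleotide array, per the labels' protocols. The deposited values are linear intensities, as judged from the values (whole numbers from -83 to 65497). Not given in the sources used here: whether a background was subtracted or arrays were scaled by the authors.

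Values were quantile normalised; values under 0 were set to 0, 16 was added and log2 taken. Of 29922 probes 21020 had 1 gene symbol; 3410 symbols were updated through RefSeq (GRCm38.p6). Each gene was tested through its brightest probe; genes with a mean log2 level above 6.07 were kept.

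limma 3.58.1 in R 4.3.3 fitted 3 models: arm effects in 3 windows with time as a factor (28 residual degrees of freedom, 0 h left out), means per arm and window (45), and times to 3 h with arm as a block (10). Benjamini-Hochberg adjustment covered all 12792 genes, with a threshold of 0.05. Some of the comparisons were run on simulated data and recovered known changes. The simulated noise was independent between arrays, with no shared course over time. Recovery there therefore cannot show how the tests do where neighbouring times depend on each other. In the models by window, times stand in for replicates, and in the model of times to 3 h the arms do. The p-values of the arm effects rest on how arm differences spread between times. Those of the means per arm and window rest on the spread of levels within a window. Those of the times to 3 h rest on the spread between arms. Neighbouring times may depend on each other, and none of these is a spread between replicate cultures.

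The members, lists and tests were chosen with earlier results of these data known. All members are named. Other genes are the 1 most correlated with each member, the largest called rises (up to 4) and falls (up to 2) per list, and Yap1, Wwtr1, Mrtfa and Mrtfb. Alternatives covered scaling, the constant added, filter, probe, time term, arms fitted and leaving out single times or arrays. The number of arrays limits the precision.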

Additional observations from a re-analysis of the deposited data

Results flagged for a closer look

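In 9 of 72 groups of arrays (8 genes, 3 arms, 3 windows) 1 array lay far from the others of its group. For independent replicates the rule flags about 1 group in 20. These groups are runs of times, and the genes share arrays, so that rate allows no test of the 9. All 9 were the 5 h array of the 5 to 48 h window, the first after the early peak and the highest of its group of 7. With prieurianin this was Ccn1 at 13.72, on the log2(intensity + 16) scale. With DMSO it was Ccn2 at 9.64 and Amotl2 at 11.06. In untreated cells it was Ccn1 at 12.43, Ccn2 at 10.90, Ankrd1 at 9.05, Thbs1 at 10.12, Vcl at 14.59 and Zyx at 14.52.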

How the results depend on the processing

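Of 2229 values recomputed for 77 differences of single members under other settings, 2187 kept their direction and side of the threshold, 40 dropped below it, 2 moved past it and 0 reversed. Of 655 values of 23 counts of members called, 631 stayed within 1.5 times the count given. For counts of members called out of 8, prieurianin against untreated cells at 0.25 to 3 h gave 1, and 0 with median centring, no time block or the 2 arms compared alone (0 to 1 without single times). DMSO against untreated cells with those 2 arms alone gave 1 at 0.25 to 3 h and 1 at 96 to 288 h, where the fit of all arms gave 0; without a time block it gave 1 at 5 to 48 h, where the count was 3. Prieurianin against DMSO at 5 to 48 h gave 2 without a time block. The growth of that gap gave 0 to 6 without single times and 5 without the prieurianin array at 192 h. The prieurianin course to 96 to 288 h gave 2 with 0 h left out (1 to 2 without single times). Its difference from the DMSO course gave 0 to 4 without single times and 3 without the prieurianin array at 192 h, and from the untreated course 0 to 2 and 2. With the 2 control arms alone the count was 1 at 0.25 h and 3 at 2 h. Over all genes the count for prieurianin against DMSO was 1424 at 5 to 48 h (411 without a time block, 1896 without the prieurianin array at 192 h) and 2133 at 96 to 288 h (657 and 3410). Values as deposited shifted the median of all genes by up to -0.35, at 3 h minus 0 h. The cause of these changes was not tested. Beyond the pairing of arms by time that the fit already holds (the fits without a time block are the unpaired ones), no paired analysis was possible because the labels give no replicate numbers. Alternatives without the prieurianin array at 192 h, without the untreated array at 1 h and with each probe as its own row were chosen after seeing the data. With 1 array per arm and time, dim members in the controls, Ccn2 and Ankrd1 above all, carry the least precise differences.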
